A study of Mus musculus with 2 samples.

Results

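The 10 genes described here encode proteins of the neutrophil: S100a8 and S100a9 (the calprotectin subunits), Camp, Ngp and Ltf (secondary granule proteins), Elane and Mpo (primary granule proteins), and Retnlg, Ly6g and Csf3r (genes of mature neutrophils). They were taken by gene symbol, and all 10 symbols were found among the 32285 genes listed for both libraries. The libraries were made from dissociated mouse liver by droplet single-cell RNA sequencing, with 1 library per group. The WT library (genotype CTRL) came from liver. The N-LKO library (genotype NgBR KO) came from liver plus tumor of mice lacking NgBR, the product of Nus1, in hepatocytes, where the albumin promoter drives Cre. Mice in both groups were on the C57BL6 background and had the Western diet (WD) for 16 weeks, although their titles give the diet as high-fat. Hepatocytes and nonparenchymal cells were mixed in equal parts in WT, and tumor cells were added to that mix in N-LKO, so the share of hepatocytes was set by hand. Genotype, tumor tissue and library therefore cannot be told apart. With 1 library per group there was no replicate and no test across samples. Every interval below is a 95% interval covering counting error only.

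Neutrophils make their granule proteins in sequence while they mature in the bone marrow. Azurophil (primary) granule enzymes such as neutrophil elastase and myeloperoxidase are transcribed in promyelocytes. Specific (secondary) granule proteins such as lactoferrin and cathelicidin follow in myelocytes and metamyelocytes, and these transcripts are low in circulating cells. Calprotectin, a cytosolic calcium- and zinc-binding heterodimer, is among the most abundant neutrophil products and is also made by some monocytes. In liver, neutrophils are sparse at rest and enter from the blood during inflammation.

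Calprotectin carried most of the member signal, and the promoters of S100a9 and of the 3 secondary granule genes are shown. That of S100a8 is not shown. S100a8 and S100a9 lie 22.6 kb apart on chromosome 3 (90668978 to 90670035 and 90692632 to 90695721), and Camp and Ltf lie 1170 kb apart on chromosome 9 with Ngp between them. Coordinates are GRCm38, matched by gene ID, and sequences are RefSeq's for GRCm38.p6. Each stretch ends at the last base before the first annotated base of the gene in GENCODE M21, and capitals mark a match to TTGCNNAA, a C/EBP-type motif, on either strand. The Camp stretch (minus strand, chr9:109849618-109849706) is shown because it held no match. The Ngp stretch is on the plus strand (chr9:110419558-110419746), as is the Ltf stretch (chr9:111019042-111019270), and the S100a9 stretch is on the minus strand (chr3:90695722-90695971).
Camp: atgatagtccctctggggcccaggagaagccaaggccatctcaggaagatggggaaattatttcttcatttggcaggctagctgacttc
Ngp: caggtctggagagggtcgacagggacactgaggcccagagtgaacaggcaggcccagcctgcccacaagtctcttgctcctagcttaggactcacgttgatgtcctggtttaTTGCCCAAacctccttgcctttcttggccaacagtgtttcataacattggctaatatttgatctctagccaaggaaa
Ltf: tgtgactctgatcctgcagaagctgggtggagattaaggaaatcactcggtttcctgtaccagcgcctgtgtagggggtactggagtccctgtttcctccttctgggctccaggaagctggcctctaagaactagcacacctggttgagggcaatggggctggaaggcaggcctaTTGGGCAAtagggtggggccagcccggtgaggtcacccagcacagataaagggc
S100a9: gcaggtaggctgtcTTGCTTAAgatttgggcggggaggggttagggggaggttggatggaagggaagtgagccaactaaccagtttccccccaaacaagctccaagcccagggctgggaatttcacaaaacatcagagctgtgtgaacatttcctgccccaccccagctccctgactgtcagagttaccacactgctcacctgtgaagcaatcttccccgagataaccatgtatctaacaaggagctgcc
In the 250 bases before the RefSeq start, TTGCNNAA was found for 5 of 10 members (S100a9, Ngp, Ltf, Retnlg and Ly6g) and in 9.56% of 32851 mouse promoters of the same length. Ngp had a further match 11 bases before that start, in bases left out of the stretch shown. GAGGAA, a PU.1-type motif, was found for 6 of 10 members against 23.3% of all promoters. TGTGGT, a RUNX-type motif, was found for 1 of 10 (S100a9) against 14.05%. These matches are descriptions of letters in a window.

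The WT library held 85522287 unique molecular identifiers (UMIs, each counting 1 captured RNA molecule) over 100171 barcodes, and the N-LKO library 87575064 over 90147. After filters on depth, genes, mitochondrial share and doublet score, 18430 WT and 19854 N-LKO cells were kept, with median depths of 1400 and 1455 UMIs. Nus1 was at 73.1 CPM (the gene's UMIs scaled to 1000000 UMIs of the class, 69.0 to 77.3) in hepatocyte-like cells of WT and 39.2 CPM (33.8 to 45.3) in those of N-LKO. The floxed part is the first exon and the counts are read near the 3′ end, so they do not check the deletion. The 10 hepatocyte markers summed to 53634 and 52865 CPM in hepatocyte-like cells. That class was named from these same markers, so its level does not check the tissue label. Among barcodes under 500 UMIs, which were not assigned to a class, the WT sum was 52780 CPM and the N-LKO sum 24777 CPM. The labelled tissue's defining markers were thus present in both libraries, within and outside the class. The libraries shared 2499 barcode sequences (2.49% of WT and 2.77% of N-LKO barcodes), of which 121 were kept cells in both and 0 were neutrophil-like in both.

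Neutrophil-like cells were rare in both libraries and made up a larger share of the N-LKO cells. Clustering without the 10 members placed them in 1 cluster. Scored in N-LKO, which gave it more cells, 14 of 14 other neutrophil markers were raised over the median cluster. In WT, 13 of 14 were detected, and they summed to 4414 CPM against 3060.5 CPM in WT barcodes under 500 UMIs. The sums in N-LKO were 3092 and 1072 CPM. Of 8494 WT cells outside the hepatocyte-like class and the unnamed cluster 6, 32 were neutrophil-like (0.377%), and of 15666 such N-LKO cells, 211 were (1.35%). The difference was 0.97 percentage points (0.74 to 1.19). Cluster 6, whose best-scoring type was hepatocyte, held 1 WT and 2071 N-LKO cells, and with it in the denominator the N-LKO share was 1.19% and the difference 0.81 points (0.60 to 1.02). The cluster appeared only after 1 cluster that it shared with monocyte-like and dendritic-like cells was split, a step added after the first clustering was seen. Members made up 6 of its 10 leading genes (S100a9, S100a8, Ngp, Camp, Ltf and Retnlg), although they had not been used to form or name it. The share moved to 0.37 points with doublets kept and to 3.31 points with the members among the clustering genes. Without clustering, a rule of UMIs of at least 2 of the 14 markers was met by 35.2% of these WT cells and 18.0% of these N-LKO cells, which reversed the difference to −17.2 points. Among all kept cells 7872 in WT and 4344 in N-LKO met this rule, of which 31 and 184 were neutrophil-like. With markers over 20 CPM in barcodes under 500 UMIs left out of the rule, the difference was again positive.

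The neutrophil-like cells also held transcripts of other types. Hepatocyte markers, detected at 9 of 10 in WT and 10 of 10 in N-LKO, summed to 37942 CPM in WT against 14895 CPM in N-LKO. That was 71.9% and 60.1% of their level in barcodes under 500 UMIs, which were used as an estimate of RNA free in the suspension. The lowest listed barcode had 326 UMIs in WT and 377 in N-LKO, so droplets nearer to empty were not included. Monocyte markers (4 of 9 detected in WT, 9 of 9 in N-LKO) summed to 755 and 1607 CPM, against 4392 and 6264 CPM in monocyte-like cells. Erythroid markers summed to 22.9 and 395 CPM. Their part in the member levels below was not tested beyond a free-RNA subtraction.

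Within neutrophil-like cells, both calprotectin genes and Retnlg were more than 2-fold higher per UMI in WT than in N-LKO. Ngp and Csf3r were at nearly the same level, although Ngp moved with the way the class was formed. Summed over the 10 members, the level was 28497 CPM (26936 to 30124) in WT and 12644 CPM (12258 to 13039) in N-LKO, which is 2.25-fold higher in WT (log2 of N-LKO over WT −1.17, −1.26 to −1.08). No member was 2-fold or more higher in N-LKO and 5 of 10 were 2-fold or more lower, against a background of 18% and 24.3% of 11355 genes that reached 5 CPM in either library. The median log2 ratio was −1.01 over the members and −0.10 over all genes. The size of this difference moved with the processing: the summed log2 ratio was −0.26 with a minimum of 500 UMIs per barcode, −0.48 with the members among the clustering genes, −0.59 with doublets kept and −0.63 with no mitochondrial limit. It was −1.58 after free RNA was subtracted. Over all cells meeting the rule of at least 2 markers the ratio was 2.72, but this is not a level of neutrophil-like cells. Of those cells, 4881 of 7872 in WT and 1205 of 4344 in N-LKO were hepatocyte-like. With markers over 20 CPM in barcodes under 500 UMIs left out of the rule, the ratio was again negative.

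S100a8, which pairs with S100a9 in calprotectin, was at 8394 CPM in WT against 3945 CPM in N-LKO (log2 −1.09, −1.26 to −0.92). S100a9 was the most abundant member, at 15941 CPM in WT against 6261 CPM in N-LKO (log2 −1.35, −1.47 to −1.22). Free RNA as estimated from barcodes under 500 UMIs would have given 10.7 and 45.1 CPM of S100a8 and 20.8 and 72.6 CPM of S100a9, far below both levels. The 2-fold call ended for both under 4 alternatives, at log2 −0.26 for S100a8 and −0.33 for S100a9 with a minimum of 500 UMIs, −0.55 and −0.81 with no mitochondrial limit, −0.53 and −0.78 with doublets kept, and −0.44 and −0.60 with the members among the clustering genes. By cell, S100a9 ran from 0 to 100 UMIs around a median of 13 in WT and from 0 to 107 around a median of 3 in N-LKO. The ranges overlapped fully, and the groups differed in how many cells were low. S100a9 was absent from 3 of 32 WT and 51 of 211 N-LKO cells, and at least 10 UMIs were held by 18 and 50 cells. S100a8 had medians of 5.5 and 2 UMIs per cell and was absent from 4 and 69 cells.

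The secondary granule genes were held by few cells. Camp, the cathelicidin antimicrobial peptide, was at 1029 CPM (751 to 1377) in WT and 542 CPM (464 to 628) in N-LKO, with a log2 ratio of −0.94 (−1.41 to −0.42). Ngp, a neutrophilic granule protein related to the cathelicidins, was at 892 CPM (634 to 1219) in WT and 878 CPM (778 to 987) in N-LKO, and its ratio had an interval spanning no difference (log2 −0.04, −0.51 to 0.50). Ltf, which encodes the iron-binding protein lactoferrin, was at 435 and 293 CPM (log2 −0.60, −1.29 to 0.22). These ratios moved with the processing. At resolution 1 the log2 ratio was −2.01 for Camp, −1.51 (−1.97 to −1.04) for Ngp and −2.09 for Ltf. With doublets kept it was −0.35 for Camp, 0.61 (0.13 to 1.16) for Ngp and 0.05 for Ltf. The median cell held 0 UMIs of each. The Camp and Ngp UMIs of WT all lay in 7 cells, and 21 N-LKO cells held all the Camp UMIs.

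Primary granule transcripts of both member genes were found in 1 neutrophil-like cell. Elane, neutrophil elastase, had 7 UMIs in WT (160 CPM) and 0 in N-LKO. There, 3 counts would be 9.34 CPM, 17.1-fold below the WT value. Mpo, myeloperoxidase, had 8 UMIs in WT (183 CPM) and 0 in N-LKO, where 3 counts would be 19.6-fold below the WT value. All 15 of these UMIs came from the same single WT cell, so these 2 members of the 5 rest on 1 cell. The folds against 3 counts leave out the counting error of the WT UMIs. The counting intervals of the ratios, which include it, ended at log2 −3.40 for Elane and −3.65 for Mpo. Other ways of forming the class brought N-LKO cells with these UMIs into it, at log2 −0.90 for Elane and −1.36 for Mpo with a minimum of 500 UMIs, −0.92 and −1.40 with no mitochondrial limit, and −0.40 and −1.53 with the members among the clustering genes.

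Among the genes of mature neutrophils, Retnlg, a resistin-like secreted protein, was at 1166 CPM (868 to 1534) in WT and 445 CPM (375 to 524) in N-LKO (log2 −1.40, −1.86 to −0.90). One WT cell held 47.1% of the WT Retnlg UMIs, and the ratio reversed to 0.33 with a minimum of 500 UMIs and to 0.19 with the members among the clustering genes. Csf3r, the receptor for granulocyte colony-stimulating factor, was at 252 CPM (126 to 450) and 249 CPM (198 to 310), with an interval spanning no difference (log2 −0.07, −0.93 to 1.04). Ly6g, the surface antigen used to identify mouse neutrophils, had 2 UMIs in WT and 10 in N-LKO (45.7 and 31.1 CPM, log2 −0.81, −2.79 to 2.68). A difference in Ly6g was not detectable at this depth. Ly6g belongs to a cluster of related genes, and the effect of their likeness on its count was not tested.

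**Figure D1:**
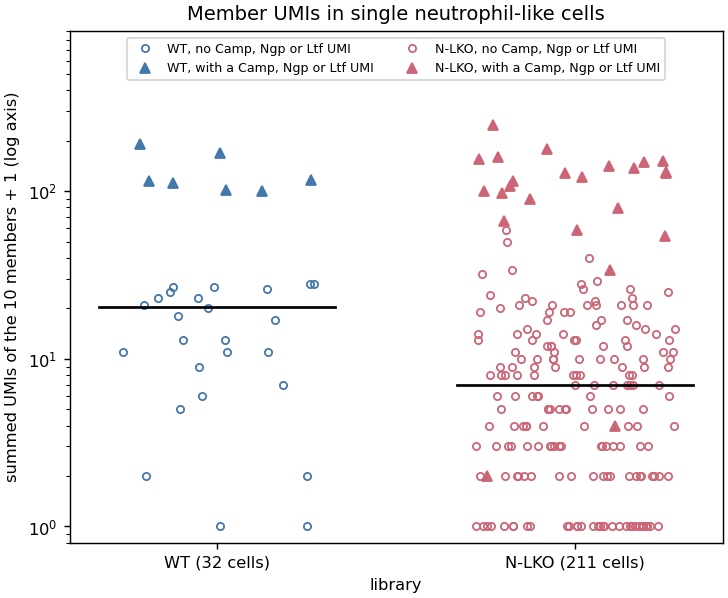
Summed UMIs of the 10 members in each neutrophil-like cell, 32 WT and 211 N-LKO, with cells holding a Camp, Ngp or Ltf UMI marked apart from those without. The WT median is 19.5 UMIs and the N-LKO median is 6, and the highest sums of both groups belong to cells with a secondary granule UMI, although 2 of them in N-LKO, at 1 and 3 UMIs, lie below the median.

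The cells fell into a small part holding secondary granule transcripts and a larger part without them. A UMI of Camp, Ngp or Ltf was present in 7 of 32 WT cells (21.9%, 9.28 to 40.0) and 24 of 211 N-LKO cells (11.4%, 7.43 to 16.5), a difference of −10.5 points (−27.8 to 1.4) whose interval includes 0. In the cells with such a UMI, S100a8 was at 24335 CPM in WT against 24056 CPM in N-LKO (log2 −0.02, −0.22 to 0.19), and S100a9 at 44724 and 35681 CPM (log2 −0.33, −0.48 to −0.17). Ngp was at 3664 CPM in these WT cells against 8427 CPM in these N-LKO cells, and Camp at 4228 against 5200 CPM, but the cells were chosen for holding these genes, so the ratios are not compared. All Ly6g UMIs of the class were in these cells, and Lcn2, a secondary granule protein that binds bacterial siderophores, stood at 1973 CPM in WT against 3496 CPM in N-LKO. Retnlg in the cells with such a UMI was at 3664 and 1614 CPM (log2 −1.19, −1.80 to −0.55). In the cells without such a UMI, S100a8 was at 3265 and 1606 CPM (log2 −1.03, −1.33 to −0.71) and S100a9 at 6681 and 2840 CPM (log2 −1.24, −1.45 to −1.01). Retnlg was at 363 and 309 CPM in these cells, with an interval spanning no difference (log2 −0.28, −1.11 to 0.78). Il1b, an inflammatory cytokine, was at 1391 and 1018 CPM there, against 94.0 and 149 CPM in the cells with a secondary granule UMI. The split was made on member UMIs, so the contrast between its 2 sides for Camp, Ngp and Ltf is fixed by the rule. It rests on 7 WT and 24 N-LKO cells with such a UMI.

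Over all kept cells, the secondary granule transcripts were found in the same cells. Of the cells with a Camp UMI, 16 of 25 in WT (64.0%) and 52 of 89 in N-LKO (58.4%) also held Ngp, against 0.060% and 0.19% of cells without Camp. Ltf was present in 13 of 27 WT and 50 of 89 N-LKO cells with Ngp. Cells with Ly6g held Ngp in 3 of 4 WT and 17 of 20 N-LKO cases. Of the cells with Retnlg, 6 of 36 in WT and 27 of 298 in N-LKO held Ngp, while 25 and 242 held S100a9. None of the 8 WT or 32 N-LKO cells with Elane held Ltf, with upper interval bounds of 36.9% and 10.9%.

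Over the whole library, without any filter or cell class, all 10 members were higher in N-LKO. The summed level was 107 CPM (105 to 109) in WT and 454 CPM (449 to 458) in N-LKO, 4.24-fold higher (4.14 to 4.33). In such a sum over all barcodes, more cells of a type and more RNA per cell cannot be told apart. The 7 members with at least 5 CPM in 1 library were each 2-fold or more higher, against a background of 14.1% of 11056 genes. Elane, Mpo and Ly6g stayed under that minimum. S100a8 stood at 32.1 CPM in WT against 142 CPM in N-LKO (4.43-fold), and S100a9 at 54.8 and 230 CPM (4.19-fold). The secondary granule genes had similar ratios, 3.71-fold for Camp (2.48 to 9.21 CPM), 4.13-fold for Ngp (3.30 to 13.6 CPM) and 4.06-fold for Ltf (1.31 to 5.33 CPM). Retnlg was 6.51-fold higher (5.76 to 7.39; 3.41 to 22.2 CPM) and Csf3r 3.38-fold higher (3.10 to 3.69; 7.85 to 26.5 CPM). Mpo was 3.20-fold higher (2.38 to 4.41) and Elane had the smallest ratio, 1.93-fold (log2 0.95, 0.58 to 1.32). Ly6g, with 6 and 55 UMIs, was 8.34-fold higher (3.86 to 25.4). Neutrophil-like cells held 13.6% of the member UMIs of WT and 10.2% of those of N-LKO.

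**Figure D2:**
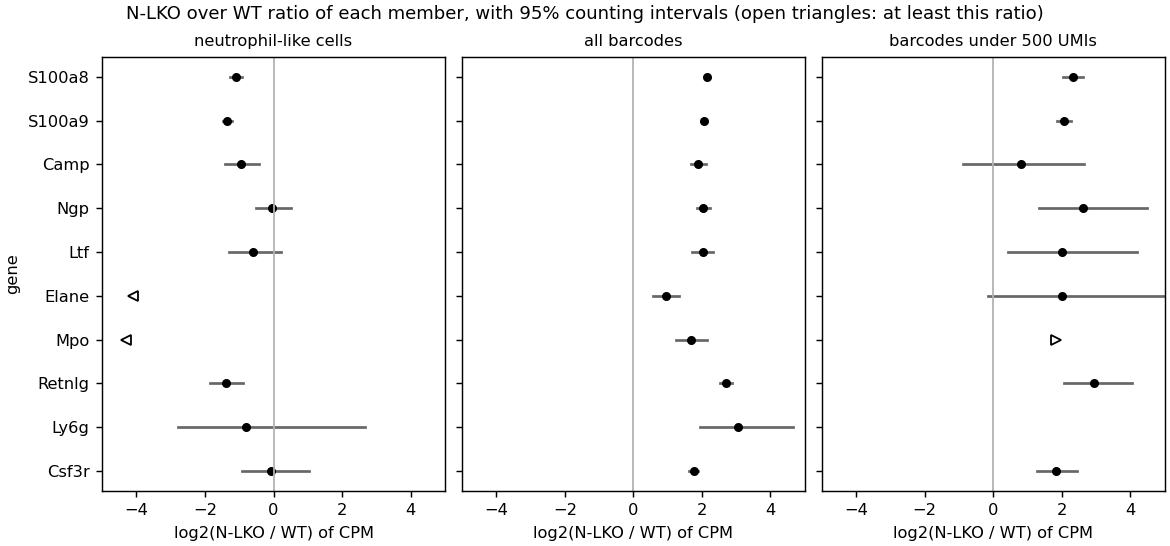
Log2 ratio of N-LKO over WT CPM for each member in neutrophil-like cells, in all barcodes and in barcodes under 500 UMIs, with 95% counting intervals as bars. Open triangles mark genes with 0 UMIs in 1 group, placed at the ratio that 3 counts in that group would give. Their places leave out the counting error of the other group. The points lie at or left of 0 in neutrophil-like cells and right of 0 in the other panels, and genes with 3 or fewer UMIs in both groups are not drawn.

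Barcodes under 500 UMIs served as the background, in place of droplets nearer to empty. There were 18526 of them in WT and 13674 in N-LKO, and their summed member level was 51.7 CPM (46.9 to 56.9) in WT and 233 CPM (221 to 245) in N-LKO (log2 2.17, 2.01 to 2.33). S100a8 was at 14.9 and 75.1 CPM and S100a9 at 28.9 and 121 CPM. Retnlg was at 1.35 and 10.7 CPM and Csf3r at 4.41 and 15.9 CPM. Mpo had 0 UMIs in WT and 8 in N-LKO, 3.57-fold above the level that 3 counts would give in WT. The counting interval of its ratio began at log2 1.19. Of all 10135 genes with at least 5 CPM in this background, 18.6% were 2-fold or more higher in N-LKO. A few barcodes with 10 or more member UMIs, 9 in WT and 22 in N-LKO, held 36.5% and 24.1% of the member UMIs of this background, so it was not made of free RNA alone, and the share of free RNA in it was not measured. With barcodes of at most 1 member UMI the log2 ratio was 2.40, and with barcodes under 400 UMIs it was 1.68.

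In the other cell classes, the members were at low levels that were mostly higher in N-LKO. Summed over the members, 9 of 10 classes were 2-fold or more higher in N-LKO and the dendritic-like class was the exception. Of all genes, 5.06% were 2-fold or more higher in the Kupffer-like, 5.51% in the hepatocyte-like, 8.4% in the dendritic-like and 8.47% in the monocyte-like class. The percent was 11.5 in T or NK-like, 12 in endothelial-like, 12.1 in cholangiocyte-like, 13.9 in B-like, 18.2 in plasma-like and 21.3 in erythroid-like cells. Monocyte-like cells were at 159 CPM in WT against 683 CPM in N-LKO (log2 2.10, 1.84 to 2.37), but most WT cells of this class were in cluster 22 (652) and most N-LKO cells in cluster 4 (1182). Kupffer-like cells were at 77.8 and 322 CPM (log2 2.04, 1.83 to 2.27) and endothelial-like cells at 109 and 476 CPM (log2 2.13, 1.94 to 2.32). T or NK-like cells, which should lack these transcripts, were at 114 and 550 CPM (log2 2.27, 2.05 to 2.50), and B-like cells at 54.7 and 403 CPM (log2 2.85, 2.28 to 3.55). Hepatocyte-like cells were lowest in N-LKO, at 25.7 and 133 CPM (log2 2.37, 2.19 to 2.55), with 8181 of the WT cells in cluster 0 and 2022 of the N-LKO cells in cluster 5. Dendritic-like cells were at 838 and 531 CPM (log2 −0.66, −0.80 to −0.51), and 397 of the N-LKO cells against 7 of the WT cells came from cluster 23. In WT, 4 of the 451 dendritic-like cells held 95.3% of the member UMIs of the class. Free RNA would have given 17.0 to 32.8 CPM in these classes of WT and 74.3 to 114 CPM in N-LKO, a value not computed for hepatocyte-like cells.

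S100a8 and S100a9 were each 2-fold or more higher in N-LKO in 9 of 10 other classes. In Kupffer-like cells S100a8 was at 10.4 CPM in WT against 98.7 CPM in N-LKO, whereas Csf3r was at 39.3 and 36.3 CPM (log2 −0.12, −0.46 to 0.25). Monocyte-like cells held the highest Csf3r outside the neutrophil-like class, 42.2 CPM in WT against 90.9 CPM in N-LKO (log2 1.09, 0.57 to 1.68). They also had calprotectin with almost no secondary granule transcript, since S100a9 was at 61.0 and 318 CPM while Camp, Ngp and Ltf had 0 UMIs each in WT and 1 each in N-LKO. Retnlg in these cells was at 2.34 CPM in WT (2 UMIs) and 52.6 CPM in N-LKO (85 UMIs; log2 4.17, 2.59 to 7.56). The erythroid-like class of N-LKO held Ngp at 271 CPM from 50 UMIs, of which 40 lay in 1 of its 119 cells, against 0 UMIs in 54 WT cells. Ly6g stayed at 5 or fewer UMIs in each of the 10 classes.

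**Figure D3:**
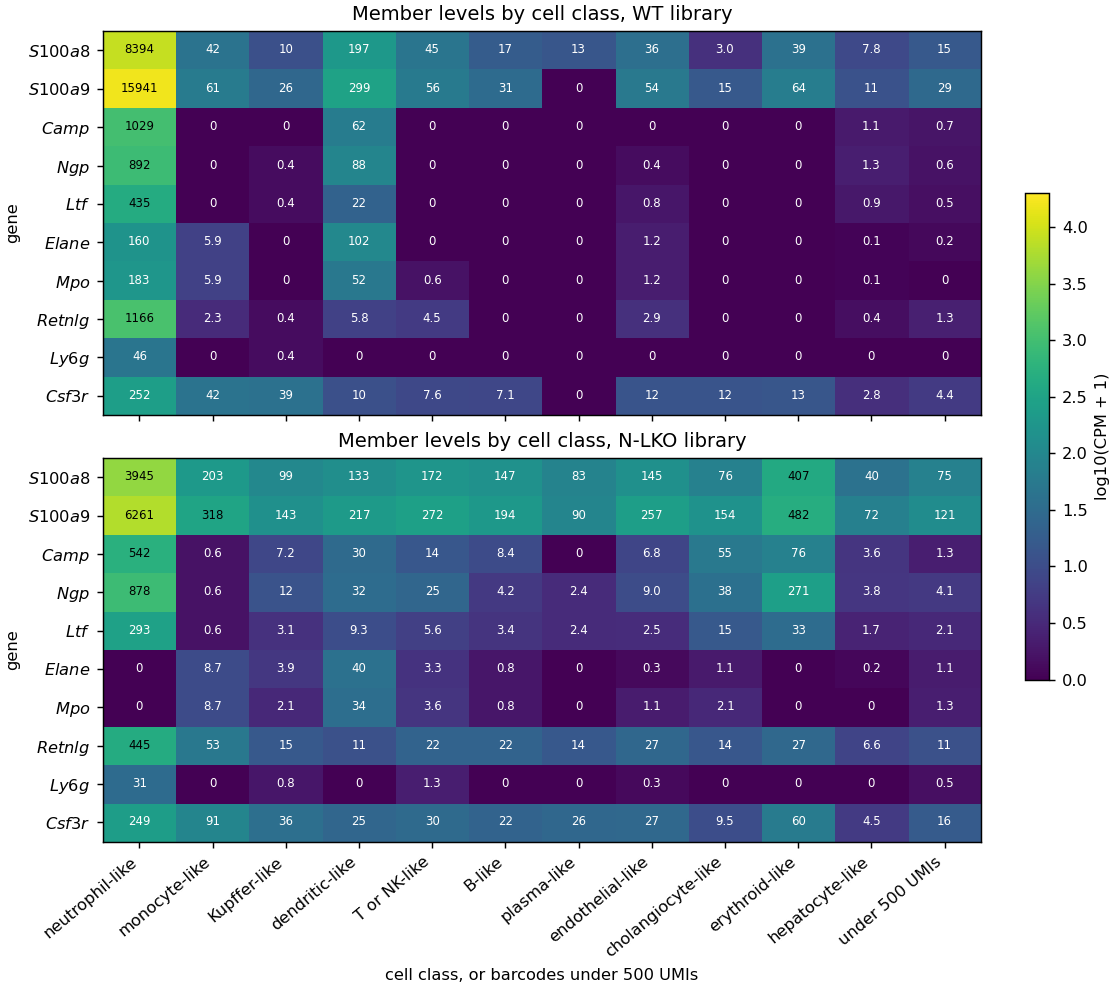
Level of each member in each cell class and in barcodes under 500 UMIs, for WT and N-LKO, in CPM on a log colour scale. The neutrophil-like class stands out in both libraries for S100a8, S100a9, Camp, Ngp, Ltf and Retnlg, and Elane and Mpo are also seen in the dendritic-like class.

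Most barcodes rich in member transcripts lay outside the neutrophil-like class. At least 10 member UMIs were held by 204 WT and 923 N-LKO barcodes, of which 131 and 470 had under 1000 UMIs in all. Among the kept cells, 56 in WT and 334 in N-LKO reached 10 UMIs, and 32 (57.1%) and 257 (76.9%) of these were in another class. In N-LKO they were spread over endothelial-like (49), Kupffer-like (43), T or NK-like (43), monocyte-like (33), dendritic-like (18), B-like (13) and hepatocyte-like (12) cells, and a part was in mixed or unnamed clusters. Markers of the own class were present in these barcodes at levels that varied against the rest of the class. In N-LKO, T and NK markers were at 2341 against 2191 CPM in T or NK-like cells, Kupffer markers at 5446 against 7034 CPM, dendritic markers at 1540 against 2179 CPM and cholangiocyte markers at 4538 against 8734 CPM. In WT, dendritic markers were at 198 against 2941 CPM in 4 dendritic-like barcodes, and Kupffer markers at 1534 against 10254 CPM in 1 Kupffer-like barcode. The 11 neutrophil markers that were low in the background were at 1570 CPM in the T or NK-like barcodes of N-LKO and 1336 CPM in its Kupffer-like ones, against 103 and 87.3 CPM in the rest, and at 2062 CPM in neutrophil-like barcodes with 10 or more. Of such barcodes that passed the other filters, 12.5% of 64 in WT and 8.99% of 367 in N-LKO were removed by doublet score, against 8.56% and 10.7% of the other barcodes. Without them, the summed level in T or NK-like cells was 47.3 CPM in WT against 145 CPM in N-LKO, in Kupffer-like cells 70.2 and 137 CPM, and in dendritic-like cells 39.7 and 158 CPM, so that the dendritic-like direction turned. Of the 10 classes, 8 were then 2-fold or more higher in N-LKO.

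By depth, such barcodes were most numerous from 500 to under 1000 UMIs, a range the kept cells did not include. There were 122 of these in WT (0.218% of barcodes in that range, 0.181 to 0.260) and 448 in N-LKO (0.971%, 0.884 to 1.07). From 1000 to under 2000 UMIs the numbers were 62 (0.290%) and 357 (1.46%), and at 2000 UMIs or more 11 (0.262%) and 96 (1.65%). The range from 500 to under 1000 UMIs held 50.6% of the member UMIs in WT and 43.8% in N-LKO, at 123 and 536 CPM.

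**Figure D4:**
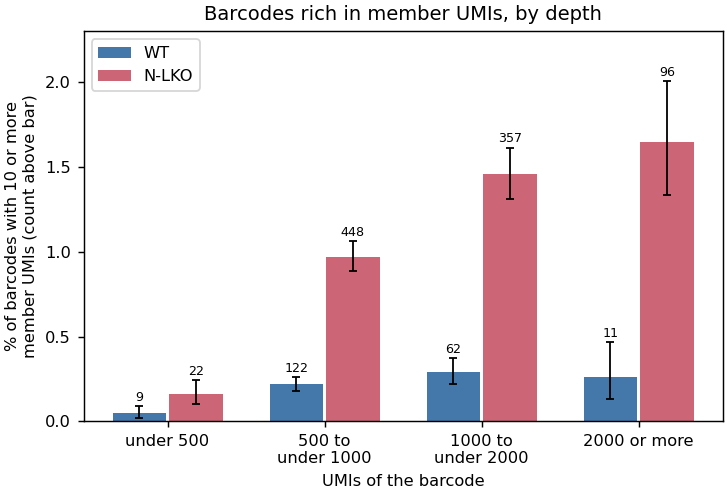
Barcodes with 10 or more member UMIs by total UMIs of the barcode, as a percent of all barcodes in each depth range, for WT and N-LKO with 95% exact intervals. The N-LKO percent is above the WT percent in each range, from 0.161% against 0.049% under 500 UMIs to 1.65% against 0.262% at 2000 UMIs or more.

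Elane and Mpo were concentrated in a handful of cells that were mostly not neutrophil-like. UMIs of either were found in 11 WT and 56 N-LKO cells, and 4 WT and 8 N-LKO cells with at least 10 held 89.4% and 66.9% of them. Of those cells, 2 in WT and 4 in N-LKO were in dendritic-like clusters, and Elane and Prtn3 stood among the leading genes of cluster 14, led by Xcr1, Naaa and Wdfy4. In the dendritic-like class Elane was at 102 CPM in WT against 39.6 CPM in N-LKO (log2 −1.36, −1.83 to −0.88), and Mpo at 52.2 and 34.4 CPM (log2 −0.61, −1.19 to 0.02). The 70 Elane UMIs of this class in WT lay in 3 cells and the 85 in N-LKO in 18. For Mpo, 36 UMIs lay in 3 WT cells and 74 in 12 N-LKO cells. Each ratio thus rests on 3 WT cells. The few cells with at least 10 UMIs also held Prtn3, the azurophil granule protease proteinase 3, at 4992 CPM in WT against 5196 CPM in N-LKO, and Ctsg, cathepsin G, at 1180 and 949 CPM. Their median depths were 2809 and 2806 UMIs. Of the secondary granule genes they held 11 Camp UMIs in WT and 3 in N-LKO, 2 Ngp UMIs in WT and 0 in N-LKO, and no Ltf UMI in either library. Elane and Mpo were found together in 6 of 8 WT and 14 of 32 N-LKO cells with Elane.

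The make-up of the member UMIs was compared between classes, since 1 source of free RNA keeps its transcripts in 1 ratio. Calprotectin took 81.2% of all member UMIs in WT and 82.0% in N-LKO, and 84.8% and 84.1% of those in barcodes under 500 UMIs. In neutrophil-like cells it took 85.4% (83.3 to 87.3) in WT and 80.7% (79.5 to 81.9) in N-LKO, where Camp, Ngp and Ltf took 13.5% against 8.27% in WT. That difference of −4.67 points turned positive under 3 alternatives of how the class was formed. Within the pair, S100a8 was 37.0% of S100a8 and S100a9 in all WT barcodes and 38.3% in all N-LKO barcodes. The same share was 34.5% and 38.7% in neutrophil-like cells. Some classes lay near the library-wide make-up and others departed from it in both libraries. In WT, calprotectin took 88.8% in T or NK-like, 87.0% in B-like (23 UMIs), 83.0% in endothelial-like and 73.8% in hepatocyte-like cells. In N-LKO it took 80.8%, 84.7%, 84.5% and 84.6% in the same classes. In Kupffer-like cells of WT, Csf3r took 50.5% of the member UMIs (43.3 to 57.8) against 11.3% in N-LKO, and in monocyte-like cells it took 26.5% and 13.3%, compared with 7.33% and 5.85% over all barcodes. In dendritic-like cells Elane and Mpo together took 18.3% and 13.9%, against 1.65% and 0.94% over all barcodes. Cholangiocyte-like and erythroid-like cells of N-LKO had 29.6% and 28.0% of their member UMIs in the secondary granule genes, from 345 and 250 UMIs. In the cholangiocyte-like cells, 35 of the 36 Ngp UMIs lay in 1 cell and 4 of 512 cells held 79.4% of the member UMIs, so single barcodes set this make-up, and the erythroid-like Ngp lay mostly in 1 cell, as given above.

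**Figure D5:**
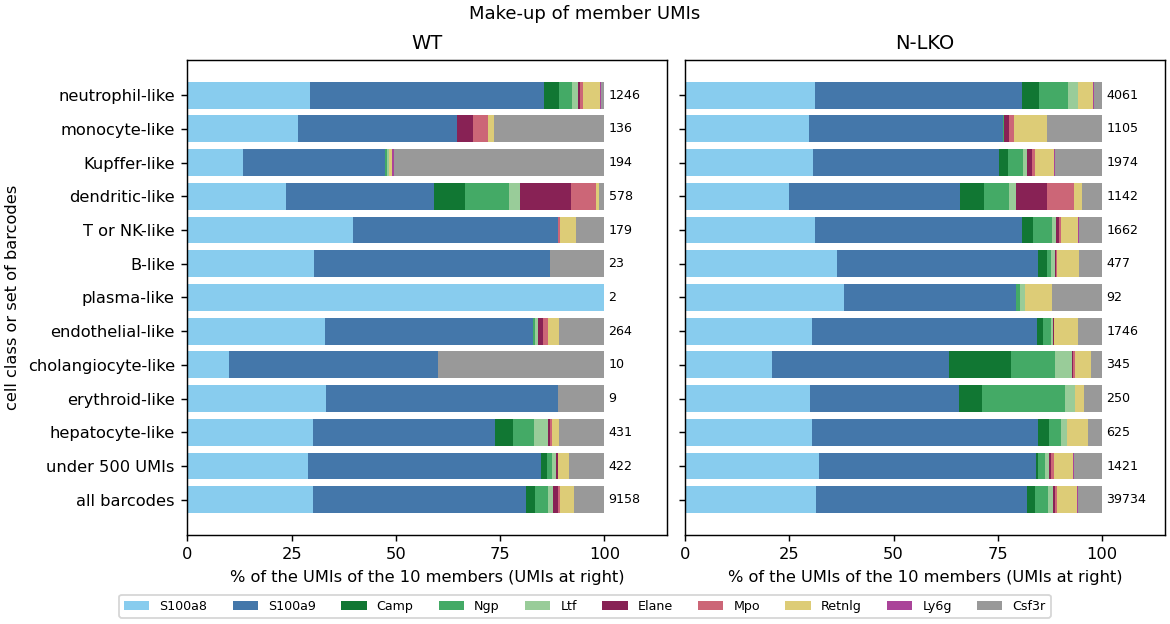
Share of the summed member UMIs taken by each of the 10 members, coloured by member, in each class, in barcodes under 500 UMIs and in all barcodes, for WT and N-LKO, with the number of member UMIs at the right of each bar. Calprotectin (both blues) takes the largest part in nearly every bar, and the WT Kupffer-like bar differs through Csf3r.

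Cells with a member UMI were also counted after each cell had been thinned to 1000 UMIs. Any member was found in 93.8% of WT neutrophil-like cells (79.2 to 99.2) and 80.6% of N-LKO ones (74.6 to 85.7), at median depths before thinning of 1170 and 1337 UMIs. T or NK-like cells, which served as cells that should lack these transcripts, had a member UMI in 2.52% (1.71 to 3.58) of WT and 10.1% (8.82 to 11.5) of N-LKO cells at median depths of 1191 and 1345, and 2.77% and 12.4% before thinning. B-like cells were at 2.19% and 9.42%, and endothelial-like cells at 2.83% and 10.7%. Monocyte-like cells were above them in both libraries, at 5.83% (4.18 to 7.88) and 16.3% (14.2 to 18.4). Kupffer-like cells were above the T or NK-like share in WT at 5.20% (4.19 to 6.37), through Csf3r, and beside it in N-LKO at 9.84%. Erythroid-like cells stood at 1.85% of 54 and 13.4% of 119, with wide intervals. Hepatocyte-like cells had the lowest N-LKO share, 4.96%.

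Other neutrophil genes were summarised in lists chosen with earlier results of these data known, within neutrophil-like cells. Each count is to be read against the 18% of all genes that were 2-fold or more higher and the 24.3% that were lower in these cells. Of 15 specific and gelatinase granule genes, 1 was 2-fold or more higher in N-LKO and 4 were lower, with a median log2 ratio of −0.21 against −0.10 over all genes. Lcn2 was at 618 and 514 CPM. Chil3, a chitinase-like protein of myeloid cells, was the higher one at 22.9 CPM (1 UMI) and 202 CPM (log2 2.57, 0.62 to 8.47), and Mmp9, the gelatinase of tertiary granules, was among the lower ones at 297 and 80.9 CPM (log2 −1.90, −2.89 to −0.79). Wfdc21 at 1738 and 682 CPM and Hp, the haemoglobin-binding protein haptoglobin, at 503 and 847 CPM had high levels in barcodes under 500 UMIs, 2199 and 755 CPM and 433 and 1492 CPM. The azurophil list rested on 12 WT UMIs and 1 N-LKO UMI, with Prtn3 at 7 and 0 UMIs, Fcnb at 3 and 1 and Ctsg at 1 and 0.

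Among 17 surface receptors of mature neutrophils 3 were higher and 3 lower, a share of higher genes near the 18% and of lower genes below the 24.3% of all genes. The median log2 ratio was −0.07, or −0.62 at the bounds. At the bounds, genes at 0 in 1 library were placed at the ratio that 3 counts there would give. Il1r2, a decoy receptor for interleukin 1, was at 91.5 and 346 CPM (log2 1.75, 0.52 to 3.82), and Clec4d, a C-type lectin, at 160 and 399 CPM (log2 1.22, 0.23 to 2.66). Clec4e, another C-type lectin, was at 160 and 212 CPM. Of 13 inflammatory effectors 7 were higher and 3 lower, with a median of 1.03, or 0.49 at the bounds, against 18% and 24.3% of all genes. Monocyte markers were also higher in N-LKO in this class (755 and 1607 CPM), and their part in these values was not tested. Il1b was at 1075 and 928 CPM and the neutrophil attractant Cxcl2 at 526 and 753 CPM. The chemokine Ccl4 was at 22.9 CPM (1 UMI) and 492 CPM (log2 3.85, 1.93 to 9.74), and Il1rn, an interleukin 1 receptor antagonist, at 22.9 CPM (1 UMI) and 153 CPM (log2 2.17, 0.19 to 8.07).

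Of 9 transcription factors of granulopoiesis, 3 were higher and 1 lower (median 0.40, or 0.07 at the bounds), again beside 18% higher and 24.3% lower of all genes. Mxd1, an antagonist of MYC, was at 412 and 355 CPM, Cebpb at 183 and 358 CPM, Junb at 91.5 and 333 CPM (log2 1.70, 0.47 to 3.77) and Runx1 at 91.5 and 234 CPM. Of 11 immediate early and heat shock genes, 6 were higher and 0 lower, against 18% and 24.3% of all genes (median 1.17, or 0.28 at the bounds), with Fos at 91.5 and 230 CPM, Atf3 at 22.9 CPM (1 UMI) and 137 CPM (log2 2.01, 0.03 to 7.92) and Dusp1 at 229 and 290 CPM. These genes can respond to tissue dissociation, and their part in the member levels was not tested. Of 7 other S100 genes 2 were higher and 2 lower (median −0.64, or −0.74 at the bounds), with S100a11 at 778 and 504 CPM, S100a6 at 686 and 489 CPM and S100a10 at 366 and 224 CPM. S100a1 at 343 and 109 CPM and S100a13 at 114 and 46.7 CPM stood near their background levels of 394 and 122 CPM and of 106 and 43.0 CPM.

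A list of 10 growth factor, cytokine and attractant ligands was counted over the whole library. Cxcl2 was at 11.5 CPM in WT against 64.3 CPM in N-LKO (log2 2.48, 2.38 to 2.58), and Cxcl1, another attractant acting on CXCR2, at 11.5 and 21.9 CPM (log2 0.93, 0.81 to 1.04). Csf1, the macrophage growth factor, was at 10.4 and 14.1 CPM (log2 0.44, 0.32 to 0.57). Csf3, the ligand of the Csf3r product, had 0 UMIs in WT and 4 in N-LKO, so its level was at the limit of detection. Csf2 went the other way, with 8 UMIs in WT and 2 in N-LKO (log2 −1.80, −5.31 to 0.29). Cxcl5 had 30 and 73 UMIs (log2 1.23, 0.62 to 1.91) and Cxcl3 4 and 16. Il1a was at 15.7 and 25.8 CPM, Il6 had 68 and 145 UMIs and Il17a 2 and 14. None of the 5 of these ligands that could be counted in neutrophil-like cells was 2-fold or more higher or lower there.

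The genes most like the members in pattern were sought over the 20 profiles of classes with at least 50 cells in each library, by the Pearson correlation of log2(CPM + 1) with the summed members. The 5 highest were Il1r2 (0.87), Chd7 (0.84), Nr4a3 (0.83), Pacs2 (0.83) and Gm31718 (0.83). The profiles share 2 libraries and their free RNA, so these values are descriptions over classes. With the neutrophil-like class included, 22 profiles gave Il1r2 (0.90), Mmp8, a granule collagenase, (0.90), Padi4, which citrullinates histones, (0.87), Bmx (0.87) and Clec4d (0.87).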

How the data were processed

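Liver cells of 1 WT and 1 N-LKO library were counted with the 10x Genomics 3′ kit. The deposited matrices hold UMI counts per gene and barcode, written by Cell Ranger 7.1.0 per the file headers, and the submitters' processing notes name Cell Ranger, Seurat and mm9. The gene IDs matched GENCODE M21 (GRCm38) for 99.6% of 32285. The deposited counts list 100171 and 90147 barcodes with no fewer than 326 and 377 UMIs, so barcodes below those depths were not analysed here.

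Barcodes with at least 1000 UMIs, 400 genes and at most 30% mitochondrial UMIs were kept, and those with a doublet score (simulated doublets among nearest neighbours) above 0.25 were removed (1728 in WT and 2360 in N-LKO). Counts were scaled to 10000 per cell, and 2000 variable genes without the 10 members, 30 components, 20 neighbours and Leiden clustering at resolution 0.3 were used (scanpy 1.11.5, leidenalg 0.10.2). Clusters were named from fixed markers when the marker score was at least 0.2 with at least 3 markers raised, and a cluster with neutrophil markers scoring over 0.6 of the best type was split once. Doublets and free RNA remain possible within clusters.

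UMIs were summed per class and library and expressed as CPM with exact Poisson intervals. Ratios of N-LKO over WT used 0.5 added UMI and exact conditional binomial intervals, shares used Clopper-Pearson intervals, and differences of shares used Newcombe intervals. A gene counted as higher or lower at 2-fold or more, among genes with at least 5 CPM in 1 library, and 0 UMIs were read against a floor of 3 counts over the class. The calculation was tested on simulated data. Those counts were drawn independently with counting error only, so the test did not cover UMIs gathered in a few cells. UMIs limit amplification bias, and cells are not replicates. The members and lists were chosen with earlier results of these data known. Beyond the members, the text names from each list up to 3 genes with the most UMIs in neutrophil-like cells and up to 2 with the largest ratio among those with at least 20 UMIs, and the 5 genes most like the members. One gene that this rule names is not reported here. A few others (Lcn2 and Il1b in the split, Nus1 and the ligands over the whole library) were named after their values were seen. Alternatives covered the filters, clustering, scaling and background.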

Additional observations from a re-analysis of the deposited data

Results flagged for a closer look

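The direction of the summed members differed between classes. The log2 ratio of N-LKO over WT was −1.17 in neutrophil-like cells and −0.66 in dendritic-like cells, but 2.27 in T or NK-like cells, where these transcripts are not expected. With 1 library per group, the difference between these effects was not tested.

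Barcodes from 500 to under 1000 UMIs lay outside the kept cells, yet 122 of them in WT and 448 in N-LKO held 10 or more member UMIs. They were not assigned to a cell class in the report.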

How the results depend on the processing

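Of 191 alternative values, 117 stayed inside the interval of the main value or within 1.5 times the count, 62 moved further and 12 reversed. For the gene lists this was not a counting interval. It ran from the lowest to the highest gene ratio of a list, or between ordered gene ratios for all lists together. Sign changes of the gene lists, and of members less than 2-fold different in the main value, were not counted as reversed. They were counted as moved or as staying inside, as for Ngp, which moved from −0.04 to 0.61 with doublets kept. The neutrophil-like share (0.97 points more in N-LKO) was 1.48 with no mitochondrial limit, 0.37 with doublets kept and 3.31 with the members kept for clustering. Cells with at least 2 markers gave −17.2, and 2.56 when markers over 20 CPM in the background were left out. The log2 ratio of the summed members in the class (−1.17) was −0.26 with 500 UMIs, −0.63 with no mitochondrial limit, −0.59 with doublets, −0.48 with members for clustering, −1.31 at resolution 1, −1.04 with the quiet markers, −1.07 with the median gene ratio set to 1, −1.58 with free RNA subtracted, −1.08 without cells holding Camp, Ngp or Ltf, and 2.72 with at least 2 markers. The 5 members at least 2-fold lower became 1, 1, 2, 1, 8 and 0 under 500 UMIs, no mitochondrial limit, doublets kept, members for clustering, resolution 1 and at least 2 markers, and 2 without the Camp, Ngp or Ltf cells. With at least 2 markers, S100a8 was 2.79, S100a9 2.74, Elane 1.12, Mpo 1.30 and Retnlg 3.65. Of the cells meeting that rule, 4881 of 7872 in WT and 1205 of 4344 in N-LKO were hepatocyte-like, and 31 and 184 were neutrophil-like. Retnlg was 0.33 with 500 UMIs and 0.19 with members for clustering. The calprotectin share (−4.67 points) was 0.82 at resolution 1, 2.02 with at least 2 markers and 1.17 with the quiet ones. The background ratio (2.17) was 1.68 under 400 UMIs and 2.40 with at most 1 member UMI, and the whole-library ratio (2.08) was 2.05 from 1000 UMIs and 2.21 without mitochondrial UMIs. The median of the lists (0.28) was −0.27 with free RNA subtracted. The cause of these moves was not tested. With the unnamed cluster 6 in the denominator the share difference was 0.81. A mitochondrial limit of 10% left no neutrophil-like cluster and no value. No paired analysis was possible because each group has 1 library and the groups share only 1 replicate number. Alternatives on quiet markers, on Camp, Ngp or Ltf cells, on cluster 6, on barcodes with 10 or more member UMIs and on the split of a cluster were chosen after seeing the data.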
